A study of Mus musculus with 2 samples.

Results

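The G1 cyclins and the cyclin-dependent kinase (CDK) inhibitors that oppose them were followed in cultured mouse primary hepatocytes, liver cells taken from the animal and plated. The set was chosen by gene symbol and holds 10 of the 23284 genes in the count files: the D-type cyclins Ccnd1, Ccnd2 and Ccnd3, the E-type cyclins Ccne1 and Ccne2, the Cip/Kip inhibitors Cdkn1a and Cdkn1b, and the INK4 family genes Cdkn2a, Cdkn2b and Cdkn2c. RNA came from cells infected with lentivirus that expressed a JMJD3 shRNA, and from cells infected with control lentivirus, which are labelled wild type. JMJD3 is an enzyme that removes methyl groups from lysine 27 of histone H3. Each group was 1 library from hepatocytes of 5 pooled C57BL/6 mice. Virus was added 24 h after plating and left for 48 h, and both cultures were then given 5 mM glucose and 10 µM forskolin, which activates adenylyl cyclase, for 6 h as a stand-in for fasting. No replicate library and no uninfected or unstimulated culture was analysed here, so every difference below compares 2 libraries and has no replicate check.

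In G1, D-type cyclins bind CDK4 and CDK6, and E-type cyclins bind CDK2. These kinases phosphorylate the retinoblastoma protein, which releases E2F transcription factors to switch on the genes of DNA replication. INK4 proteins bind CDK4 and CDK6 and keep them from the D-type cyclins, while Cip/Kip proteins bind assembled cyclin-CDK complexes. Hepatocytes in the adult liver are mostly quiescent, and cyclin D1 is known as the cyclin that they induce when they enter the cycle. In other cell types, such as fibroblasts, JMJD3 is known for acting on the locus of Cdkn2a, which Polycomb proteins repress.

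The knockdown library held 18334366 counts and the control library 11099562. Kdm6b, which encodes JMJD3, had 33.0 CPM (counts per library total of 1000000) in the knockdown library and 90.7 CPM in the control library, a ratio of 0.364 (0.329 to 0.403). CPM here are scaled with TMM factors, and brackets give exact 95% intervals of the counts, which cover counting error only. A gene was taken as measured when its mean over both libraries was at least 1 CPM, and a change of 1.5-fold or more whose interval left out 1 was called higher or lower. With 1 library per group this rule of size stands in for a test. Among 8 hepatocyte markers Alb, Ttr, Fgb and Serpina1b (4 genes) were lower and Apob (1 gene) higher. The 8 markers summed to a level of 8879 CPM in the knockdown library and 12287 CPM in the control library. Most of that difference lay in Fgb, at 846 CPM in the knockdown library and 3987 CPM in the control library. Trf, the largest, was level at 4254 CPM in the knockdown and 4282 CPM in the control library, and Apob had 2229 CPM in the knockdown and 1300 CPM in the control library. Of 6 cholangiocyte markers 3 passed as higher, Krt7, Krt19 and Sox9. All 6 together summed to 8432 CPM in the knockdown library and 8098 CPM in the control library. Nearly all of that sum was Spp1, which did not pass, at 8011 CPM in the knockdown and 7795 CPM in the control library. Of 7 macrophage markers 6 were measured and 0 passed, and the Kupffer cell marker Clec4f had 0 counts in both libraries. Stellate cell markers had 2 of 6 measured genes lower and 0 higher, and endothelial markers 2 of 7 lower and 1 higher, with summed levels of 197 and 46.9 CPM in the knockdown library and of 195 and 52.1 CPM in the control library. For comparison, 15.3% of all measured genes passed as higher and 12.8% as lower. What these markers contribute to the values below was not tested. In RNA from whole cultures a changed number of cells of a type cannot be told apart from changed RNA per cell.

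Among the G1 genes, 4 were higher and 1 was lower in the knockdown library, and 4 passed in neither direction. The cyclins Ccnd1, Ccnd2 and Ccne1 and the inhibitor Cdkn2b were higher, and the inhibitor Cdkn2c was lower. All 9 measured genes had at least 1 CPM in both libraries, so none of them was taken in through 1 library alone, and Cdkn2a was below the minimum. Across all 12607 measured genes, 15.3% passed as higher and 12.8% as lower. The G1 genes were chosen by name but with earlier results of these data known, so a share above 15.3% is a description and supports nothing. The median log2 ratio was 0.51 over the 9 genes and -0.0039 over all measured genes. In the authors' deposited table the same 4 genes had an adjusted p-value under 0.05 with a positive fold and the same 1 gene with a negative one. Over the 12838 genes of the authors' deposited table, 14.6% met this threshold as higher and 11.8% as lower, by a test that is not given in the sources used here.

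**Figure D1:**
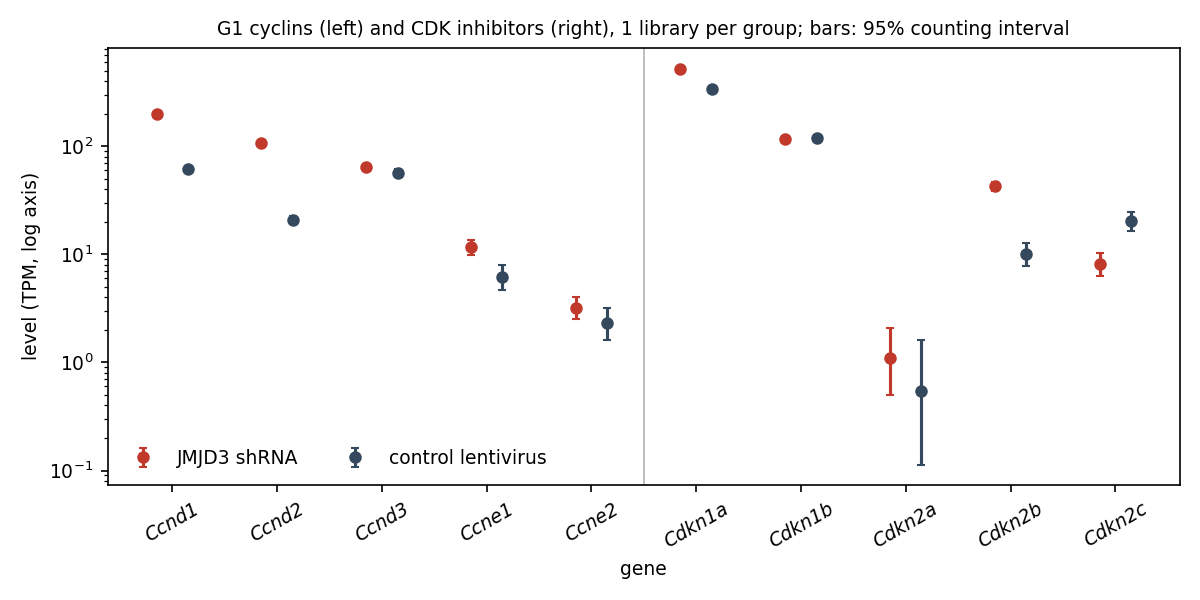
Level of each gene in TPM (log axis) in the JMJD3 shRNA library (red, left of each pair) and the control library (dark, right), with exact Poisson 95% intervals of the counts. Cdkn1a is highest in both libraries, at 521 TPM in the knockdown and 340.1 TPM in the control library, and Cdkn2a lowest, at 1.10 TPM in the knockdown and 0.547 TPM in the control library.

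Levels of different genes were set side by side as TPM, counts per exon length scaled to a total of 1000000 in each library. For every gene the TPM ratio lies 0.11 above the CPM ratio on the log2 scale. Cdkn1a was the most abundant of the set in both libraries, at 521 TPM (509 to 533) in the knockdown library and 340.1 TPM (329 to 352) in the control library. After it, Ccnd1 came next in the knockdown library, at 199 TPM, followed by Cdkn1b at 117, Ccnd2 at 106, Ccnd3 at 64.8 and Cdkn2b at 42.6 TPM. In the control library Cdkn1b followed Cdkn1a at 120.2 TPM, ahead of Ccnd1 at 61.6, Ccnd3 at 56.5, Ccnd2 at 20.9 and Cdkn2c at 20.2 TPM. Ccne1 was at 11.6 TPM in the knockdown library and 6.15 TPM in the control library, and Ccne2, at 3.19 TPM in the knockdown library and 2.32 TPM in the control library, was the lowest measured gene of the set in both. Neighbours in the order were separated by their counting intervals, except Ccne1 and Cdkn2c in the knockdown library. In the control library 3 neighbouring pairs overlapped, Ccnd1 with Ccnd3, Ccnd2 with Cdkn2c, and Cdkn2b with Ccne1. Of all measured genes, 6.86% had a higher TPM value than Ccnd1 in the knockdown library and 26.0% in the control library. For Ccnd2 these shares were 15.3% in the knockdown library and 57.2% in the control library.

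**Figure D2:**
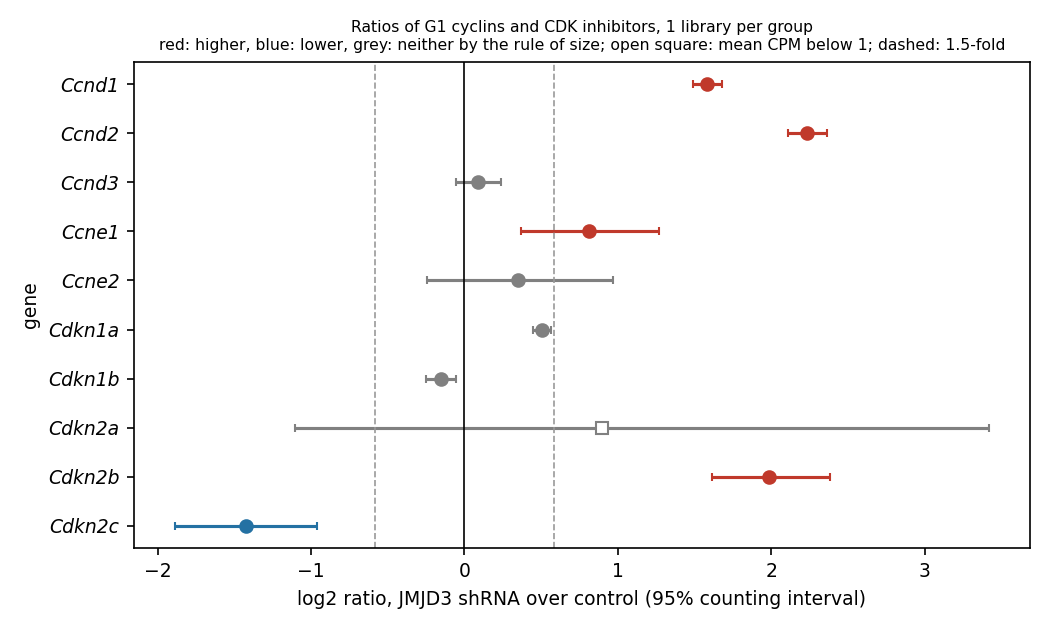
Log2 ratio of the JMJD3 shRNA library over the control library for each gene, with its exact 95% counting interval on the x axis and the genes down the y axis. Ccnd2 is highest at 2.24 and Cdkn2c lowest at -1.42; the interval of Cdkn2a, from 12 counts in all, runs from -1.11 to 3.42.

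The D-type cyclins did not move alike. Ccnd1 (chr7:152115836-152125830 in mm9, minus strand, 5 exons), the gene of cyclin D1, had 5447 counts or 301 CPM in the knockdown library, against 1129 counts or 100.5 CPM in the control library. The ratio was 2.99 (2.81 to 3.20), and 2.72% of measured genes had a higher ratio. Ccnd2 (chr6:127075727-127101066, minus strand, 5 exons) encodes the D-type cyclin best known from lymphocytes, granulosa cells and pancreatic beta cells. It had 4416 counts or 244 CPM in the knockdown library, against 582 counts or 51.8 CPM in the control library. At 4.71 (4.32 to 5.14) its ratio was the highest of the set, and 0.960% of measured genes exceeded it. Ccnd3 (chr17:47642000-47736637, plus strand, 7 exons) is the third of these cyclins and had 1057 counts or 58.4 CPM in the knockdown library, against 616 counts or 54.8 CPM in the control library. Its ratio of 1.07 had an interval of 0.963 to 1.18, which included 1. Ccnd3 shares exonic sequence with Bysl, so its count is uncertain. Ccnd1 and Ccnd2 have adjusted p-values of 4.26e-12 and 5.31e-22 in the authors' deposited table, and Ccnd3 has 0.818.

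A ratio of 2 genes' ratios needs no scaling between libraries, and 8 such pairs were compared within the families, with intervals that cover counting error only and are not adjusted over the 8 pairs. In 6 of the 8 the interval left out 1. These 6 include Cdkn2a over Cdkn2c, although Cdkn2a was below the minimum level. The Ccnd2 ratio exceeded that of Ccnd3 by a factor of 4.42 (3.87 to 5.05), and the Ccnd1 ratio exceeded it by 2.81 (2.49 to 3.17). Between Ccnd1 and Ccnd2 the factor was 0.636 (0.570 to 0.709), Ccnd2 having the larger ratio. The D-type cyclins summed to 369.9 TPM in the knockdown library and 139 TPM in the control library. Ccnd3 made up 17.5% of that sum in the knockdown library and 40.6% in the control library, whereas Ccnd2 made up 28.7% in the knockdown library and 15.03% in the control library. For Ccnd1 the share was 53.8% in the knockdown library and 44.3% in the control library. Ccnd1 was the largest D-type cyclin share in both libraries, and Ccnd3 was close behind it in the control library alone. Without division by exon length the share of Ccnd1 was 49.9% of counts in the knockdown library and 48.5% in the control library, and that of Ccnd3 was 9.68% in the knockdown library and 26.5% in the control library. The share of Ccnd2 was then 40.4% in the knockdown library and 25.01% in the control library, close there to Ccnd3.

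**Figure D3:**
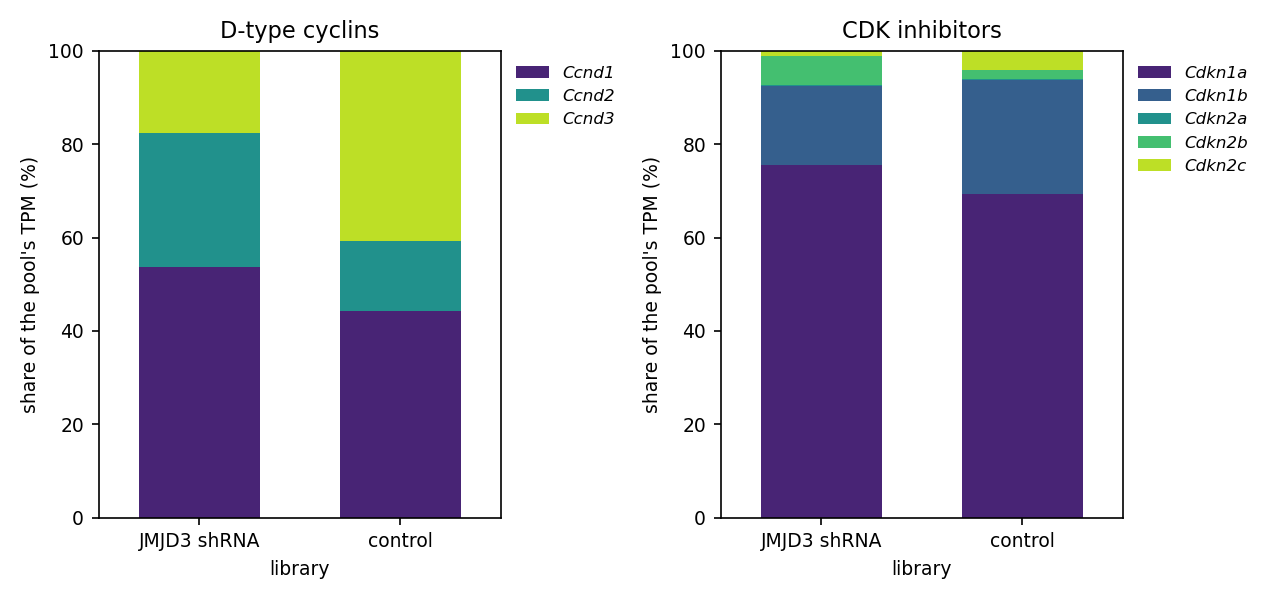
Share of each gene in the summed TPM (%) of the D-type cyclins (left panel) and of the CDK inhibitors (right panel), with the JMJD3 shRNA library left of the control library in each panel; each bar is 1 library. Ccnd3 takes 17.5% of the D-type cyclin sum in the knockdown library and 40.6% in the control library, and Cdkn1a takes 75.6% of the inhibitor sum in the knockdown library and 69.3% in the control library.

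E-type cyclins were present at low levels. Ccne1 (chr7:38883003-38892509, minus strand, 12 exons) had 164 counts or 9.06 CPM in the knockdown library, against 58 counts or 5.16 CPM in the control library. The ratio of 1.76 (1.29 to 2.41) passed as higher. Ccne2 (chr4:11118501-11131926, plus strand, 13 exons) had 74 counts or 4.09 CPM in the knockdown library, against 36 counts or 3.20 CPM in the control library. Its interval of 0.846 to 1.96 around a ratio of 1.28 included 1. Ccne2 shares exonic sequence with Ints8, so its count is uncertain. Both genes encode activators of CDK2, and at this depth no difference between their ratios was detectable, the factor of Ccne1 over Ccne2 being 1.37 (0.807 to 2.33). The authors' deposited table lists Ccne1 at a log2 fold change of 0.81, adjusted p-value 0.0285, and Ccne2 at 0.35, adjusted p-value 0.535.

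Of the Cip/Kip inhibitors, Cdkn1a encodes p21, a classic target of the tumour suppressor p53, and Cdkn1b encodes p27, a protein known for its high level in resting cells. Cdkn1a (chr17:29227931-29237667, plus strand, 4 exons) had 7615 counts or 421 CPM in the knockdown library, against 3325 counts or 296 CPM in the control library. Its ratio of 1.42 (1.36 to 1.48) had an interval above 1 and stayed under the 1.5-fold minimum, and 18.7% of measured genes had a higher ratio. The authors' deposited table lists Cdkn1a at a log2 fold change of 0.51, adjusted p-value 0.0528, and Cdkn1b at -0.15, adjusted p-value 0.651. Cdkn1b (chr6:134870419-134875543, plus strand, 3 exons) had 2021 counts or 112 CPM in the knockdown library, against 1395 counts or 124 CPM in the control library, a ratio of 0.899 (0.840 to 0.963). The Cdkn1a ratio exceeded that of Cdkn1b by a factor of 1.58 (1.46 to 1.71). Per exon length, p21 transcripts were the more abundant of the pair in both libraries, and by more in the knockdown library.

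Of the INK4 genes, Cdkn2b was higher and Cdkn2c lower in the knockdown library, and Cdkn2a was near the limit of detection in both. Cdkn2b (chr4:88952198-88956941, minus strand, 2 exons) encodes p15 and is known as a target of TGF-beta signalling. It had 428 counts or 23.6 CPM in the knockdown library, against 67 counts or 5.96 CPM in the control library. The ratio was 3.97 (3.06 to 5.21), and 1.39% of measured genes had a higher one. Cdkn2c (chr4:109333481-109337977, minus strand, 2 exons) encodes p18. This gene had 65 counts or 3.59 CPM in the knockdown library, against 108 counts or 9.61 CPM in the control library, fewer counts in the deeper library. Its ratio of 0.374 (0.270 to 0.513) was the lowest of the set, and 3.55% of measured genes had a lower one. The Cdkn2b ratio exceeded that of Cdkn2c by a factor of 10.6 (6.97 to 16.2).

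Cdkn2a (chr4:88920377-88940523, minus strand, 4 exons) encodes both p16 and the p53-stabilising protein ARF from alternative first exons, which a count per gene does not separate. The gene had 9 counts or 0.497 CPM in the knockdown library, against 3 counts or 0.267 CPM in the control library. The ratio of 1.86 had an interval of 0.465 to 10.7, so no difference was detectable at this depth. Nor could the ratio of Cdkn2a be told from that of its neighbour Cdkn2b, the factor of Cdkn2a over Cdkn2b being 0.471 (0.114 to 2.77). For Cdkn2a over Cdkn2c the factor was 4.94 (1.18 to 29.4). It rests on the same 9 and 3 counts of Cdkn2a, and halved counts were not tried on pairs. For the INK4 genes the authors' deposited table gives Cdkn2b an adjusted p-value of 1.24e-11 at a log2 fold change of 1.99 and Cdkn2c one of 4.31e-05 at -1.42; it does not list Cdkn2a. The 5 inhibitors together summed to 689 TPM in the knockdown library and 491 TPM in the control library, and Cdkn2b made up 6.18% of that in the knockdown library and 2.03% in the control library.

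Promoter sequence is shown for the members outside the D-type cyclins that passed, Ccne1, Cdkn2b and Cdkn2c, and for Cdkn1a, the most abundant of the set. Of the 10 genes 7 matched the RefSeq promoter table of GRCm38.p6 by symbol. Ccnd1, Ccnd2 and Ccne2 did not. Each line gives the 250 bases before an annotated start, 5′ to 3′ on the gene's strand, and for Cdkn1a and Cdkn2c the start that lies farther upstream of the 2 in the table. The windows are chr7:38107491-38107740 (minus strand) for Ccne1, chr4:89311033-89311282 (minus strand) for Cdkn2b, chr4:109666757-109667006 (minus strand) for Cdkn2c and chr17:29090729-29090978 (plus strand) for Cdkn1a. Capitals mark matches to a searched motif on either strand.
Ccne1: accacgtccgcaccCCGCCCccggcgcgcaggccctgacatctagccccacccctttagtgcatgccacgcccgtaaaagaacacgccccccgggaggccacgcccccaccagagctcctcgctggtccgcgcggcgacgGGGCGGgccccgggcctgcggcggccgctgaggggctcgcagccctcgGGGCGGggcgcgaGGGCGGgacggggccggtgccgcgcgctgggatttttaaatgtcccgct
Cdkn2b: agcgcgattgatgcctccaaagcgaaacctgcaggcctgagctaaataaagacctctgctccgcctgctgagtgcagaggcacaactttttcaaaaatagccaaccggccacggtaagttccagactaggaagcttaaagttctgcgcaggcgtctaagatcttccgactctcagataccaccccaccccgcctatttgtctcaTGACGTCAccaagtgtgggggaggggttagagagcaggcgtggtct
Cdkn2c: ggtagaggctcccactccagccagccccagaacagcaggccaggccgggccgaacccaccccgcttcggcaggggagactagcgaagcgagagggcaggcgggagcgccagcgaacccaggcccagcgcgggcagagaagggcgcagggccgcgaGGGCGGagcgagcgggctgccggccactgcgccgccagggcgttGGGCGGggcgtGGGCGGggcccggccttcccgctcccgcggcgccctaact
Cdkn1a: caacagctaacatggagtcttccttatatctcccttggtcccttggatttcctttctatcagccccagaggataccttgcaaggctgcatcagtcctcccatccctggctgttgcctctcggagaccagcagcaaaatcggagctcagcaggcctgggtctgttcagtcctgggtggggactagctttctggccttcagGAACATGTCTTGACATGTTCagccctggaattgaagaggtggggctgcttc

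The motifs searched were the cyclic AMP response element TGACGTCA, the E2F letters TTTCCCGC, TTTCGCGC, TTTGCCGC and TTTGGCGC, the AP-1 letters TGANTCA, the E-box CACGTG, the SP1 letters GGGCGG and the TATA letters TATAAA. The p53 response element, 20 letters with at most 1 mismatch, was added after the sequences were seen. The Cdkn2b window holds the whole cyclic AMP response element, which starts 46 bases before the transcript's start and is found in 1.55% of the 32851 windows of this length in the table. The Cdkn1a window holds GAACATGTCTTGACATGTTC, which starts 51 bases before the start, and 25 of the 32851 windows hold such a p53 element. At the other Cdkn1a start, farther downstream, the window holds 2 matches to the SP1 letters and no p53 element. The printed windows of Ccne1 and Cdkn2c hold 4 and 3 matches to the SP1 letters, which 32.7% of windows contain at least once. Both are rich in G and C, at 76.0% and 77.2% against a median of 52.4%. At the other Cdkn2c start the window holds no searched motif, and its G and C content is 42.8%. No capital stretches of the 4 printed windows overlapped. E2F letters were found in 1.86% of all windows and, among the 7 members with a window, in Cdkn2a alone. No AP-1, E-box or TATA letters were found in the windows of these 7 members. Ccnd1, Ccnd2 and Ccne2 had no window and were not searched. These are matches of letters and do not show binding.

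The nearest genes on each side that do not overlap the member gave 14 outside the set within 100 kb in the mm9 models. Of these, 12 were measured. Bysl and Ints8, which share exonic sequence with Ccnd3 and Ccne2, were thereby left out. Among these 12 neighbours 2 passed as higher and 1 as lower, near the 15.3% and 12.8% of all measured genes. Mtap, which encodes the phosphorylase that salvages methionine from methylthioadenosine, lies 93.4 kb from Cdkn2a and had 2536 counts in the knockdown library and 690 in the control library, a log2 ratio of 1.19 (1.07 to 1.31). Within 100 kb of Ccne2, Dpy19l4 had a log2 ratio of 0.79 (0.56 to 1.02) and Trp53inp1, a p53 target, one of -0.92 (-0.95 to -0.89). For Ccnd1 and Ccnd2 no nearest gene within that distance passed, and genes beyond the nearest were not examined. Named after their values were seen, Oraov1, 8.79 kb from Ccnd1, was at -0.35 (-0.53 to -0.16) and 9630033F20Rik, 16.2 kb from Ccnd2, was at -0.05 (-0.22 to 0.12). Likewise Faf1, 11.3 kb from Cdkn2c, was at -0.00011 (-0.11 to 0.11). Cdkn2b and Cdkn2a lie 11.7 kb apart.

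**Figure D4:**
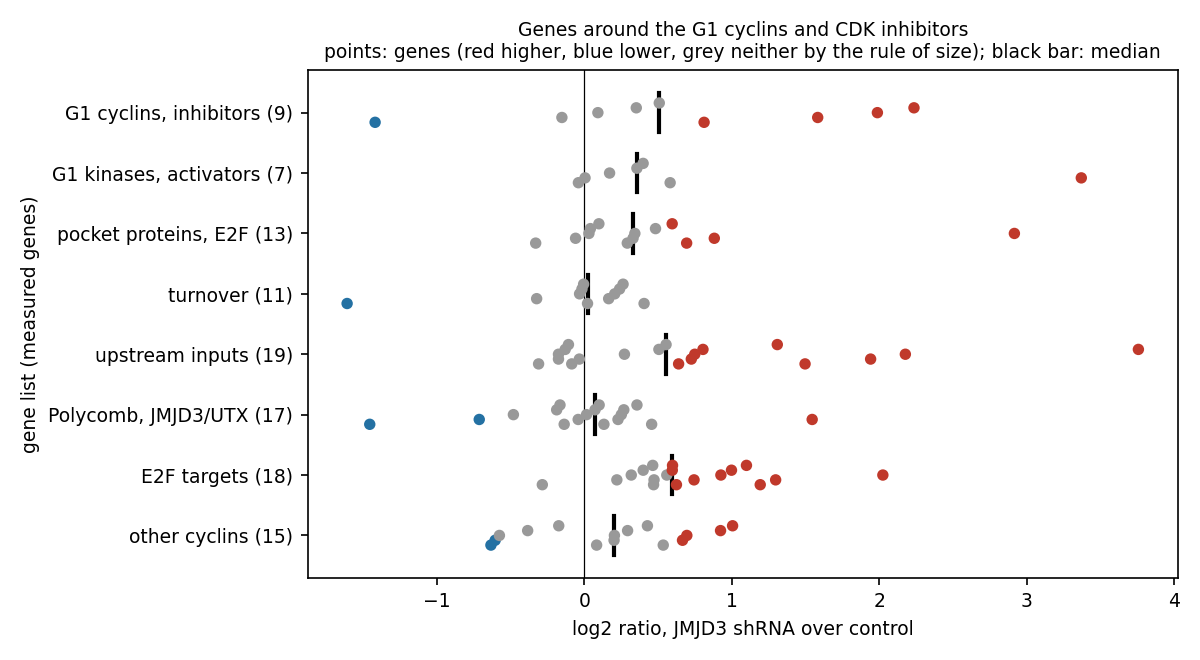
Log2 ratio of the JMJD3 shRNA library over the control library (x axis) for the measured genes of each list (y axis, number of genes in brackets), with the median of each list as a black bar. The highest points are Fosl1 at 3.76 among upstream inputs and Cdk6 at 3.37 among the kinases and their activators, and 10 of 18 E2F targets are red.

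Of the kinases that the cyclins bind, Cdk6 alone was higher in the knockdown library, and Cdk4 and Cdk2 did not pass. Values given as where a gene stood are log2 ratios of the knockdown over the control library. Cdk6 had 600 counts or 33.1 CPM in the knockdown library, against 36 counts or 3.20 CPM in the control library, a log2 ratio of 3.37 (2.89 to 3.90). Cdk4, the other partner of the D-type cyclins, was at 0.0038 (-0.06 to 0.07) and was the most abundant gene of its list in TPM. Per exon length, the level of Cdk4 was 581 TPM and that of Cdk6 33.7 TPM in the knockdown library, against 538 TPM for Cdk4 and 3.02 TPM for Cdk6 in the control library. Cdk2, the partner of the E-type cyclins, was at 0.40 (0.19 to 0.61) and Ccnh, the cyclin of the CDK-activating kinase, was lowest at -0.04. Over 7 genes, 4 kinases with Ccnh, the assembly factor Mnat1 and the activating phosphatase Cdc25a, 1 passed as higher and 0 as lower, with a median log2 ratio of 0.36. As a count this is near the shares of all measured genes, 15.3% higher and 12.8% lower. Of the inhibitors outside the set, Cdkn1c, which encodes p57, had 43 counts in the knockdown library and 53 in the control library and passed as lower, at -0.99 (-1.60 to -0.38). Cdkn2d, the remaining INK4 gene, was not measured, with 2 counts in the knockdown library and 6 in the control library.

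Downstream of the kinases, 4 of 13 genes for pocket proteins and E2F factors passed as higher and 0 as lower, with a median log2 ratio of 0.33. For comparison, 15.3% of all measured genes passed as higher and 12.8% as lower. E2f7, a repressor of the E2F family, was highest at 2.92 (1.73 to 4.41), on 73 counts in the knockdown library and 6 in the control library. The retinoblastoma gene Rb1 was at 0.04, Tfdp1, the most abundant, which encodes a partner of E2F proteins, at 0.34, and the pocket protein gene Rbl2 was lowest at -0.33. The other 3 higher genes, named after their values were seen, were Rbl1 at 0.69, E2f3 at 0.60 and E2f8 at 0.88. Of 18 E2F target and S phase genes 10 passed as higher and 0 as lower, with a median log2 ratio of 0.60, beside the 15.3% higher and 12.8% lower of all measured genes. Mki67, a proliferation marker, was highest at 2.02, and the sliding clamp gene Pcna was lowest at -0.29. Pcna had the highest TPM of the list in the control library, and the helicase subunit gene Mcm7, at a log2 ratio of 0.47, had the highest in the knockdown library. Ccna2, the cyclin of S phase, at 1.19 and Rrm2, a ribonucleotide reductase subunit, at 1.30 were named after their values were seen. Among 15 measured cyclins of other classes 4 passed as higher and 2 as lower, with a median log2 ratio of 0.20. The share of lower ones is near the 12.8% of all measured genes, of which 15.3% passed as higher. Ccng1 was at 0.67, Ccnt1 was highest at 1.005 and Ccnjl lowest at -0.63. Ccng1 had the highest TPM of the list in the knockdown library but was below Ccnl2 and Ccni in the control library. Rbl2, Ccnt1 and Ccna2 each share exonic sequence with another gene, so their counts are uncertain.

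Among 19 factors known to control these genes, 9 passed as higher and 0 as lower, beside 15.3% and 12.8% of all measured genes, with a median log2 ratio of 0.55. Myc, which induces D-type cyclins and represses Cdkn1a and Cdkn2b in other cells, had a ratio of 2.82 (2.64 to 3.02). Trp53, the gene of p53, was at a log2 ratio of 0.72 (0.63 to 0.82). Fosl1, an AP-1 subunit, was highest at 3.76 (2.49 to 5.41), on 109 counts in the knockdown library and 5 in the control library, and it shares exonic sequence with another gene. Foxo1, whose protein activates Cdkn1b, was lowest at -0.31, and Foxo3, a factor of the same family that also activates Cdkn1b, passed as higher with a ratio of 2.48 (2.18 to 2.83). Foxo3 was named after its values were seen. The beta-catenin gene Ctnnb1, the most abundant, was at -0.11. The TGF-beta mediators Smad2 at 0.80 and Smad3 at 0.55 were named after their values were seen, and of these Smad2 passed. Among 11 genes for the turnover of these proteins 0 passed as higher and 1 as lower, with a median log2 ratio of 0.02. That gene was Fbxo31, a ubiquitin ligase subunit linked to cyclin D1 degradation, at -1.61 (-1.77 to -1.45). Skp1a, the most abundant, was at -0.32 and Usp28 highest at 0.40. The other 10 genes did not pass, among them Fbxo4 at -0.03 (-0.22 to 0.16) and Ambra1 at -0.0058 (-0.11 to 0.10). Fbxo4 and Ambra1 were named after their values were seen. Neither turnover count exceeds the share of all measured genes, 15.3% higher and 12.8% lower.

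Of 17 genes for Polycomb subunits and H3K27 demethylases, Kdm6b included, 1 passed as higher and 2 as lower, with a median log2 ratio of 0.07. Neither count exceeds the share of all measured genes, 15.3% higher and 12.8% lower, and 1 of the lower genes is Kdm6b, the target of the shRNA. The higher gene was Phc2, a subunit of Polycomb repressive complex 1, at 1.54 (1.45 to 1.64), which had the highest TPM of the list in the knockdown library, while Rnf2 had the highest in the control library. Besides Kdm6b at -1.46, the Polycomb gene Cbx8 was lower at -0.71 (-1.03 to -0.40). Bmi1 and Ezh2, known as repressors of the Cdkn2a locus in other cells and named after their values were seen, were at -0.04 (-0.15 to 0.07) and 0.36 (0.17 to 0.55), and neither passed.

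**Figure D5:**
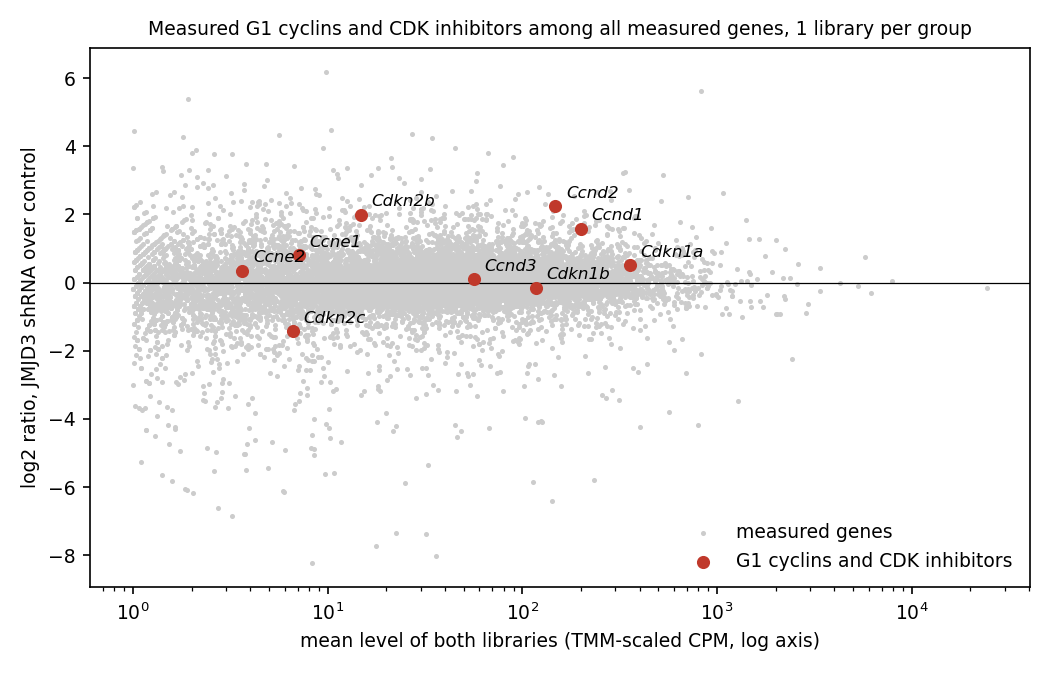
Log2 ratio of the JMJD3 shRNA library over the control library (y axis) against the mean level of both libraries (TMM-scaled CPM, log x axis) for 12607 measured genes (grey) and the 9 measured G1 cyclins and CDK inhibitors (red). Ccnd2, Cdkn2b and Ccnd1 lie near the upper edge of the cloud, with 0.960%, 1.39% and 2.72% of measured genes above them.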

How the data were processed

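RNA from 2 libraries of pooled primary hepatocytes, read as paired ends of 100 bp per the labels, was analysed from the deposited files. The deposited counts are whole reads per gene, made with featureCounts 1.4.6-p4 on UCSC gene models for mm9 without use of strand, per the file headers. The submitters' processing notes name STAR 2.5.3a, Trimmomatic 0.36, bcl2fastq 2.17.1.14, FastQC 0.11.5 and edgeR. Per the file headers no option for read pairs was set, so both reads of a pair may count, and intervals are then too narrow. The authors' deposited table gives log2 fold changes, average log2 CPM, p-values and adjusted p-values, and its test is not given in the sources used here.

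Counts were scaled with TMM factors (edgeR 4.0.16, R 4.3.3), and genes with a mean of at least 1 CPM were kept. For the knockdown over control ratios a count of 0 in 1 library was set to 3, which applied to no member, and no other pseudocount was added. Ratios carried exact conditional binomial (Clopper-Pearson) 95% intervals. TPM intervals are exact Poisson, and pair factors are exact conditional odds ratios (scipy 1.17.1). A gene passed at 1.5-fold with an interval leaving out 1. Ratios and intervals were tested on simulated Poisson counts, the model that the intervals assume. The simulation held no variation between cultures and no double counting of read pairs, so it checks the computation only. With 1 library per group no p-value was computed, and 1 count equals 0.0552 CPM in the knockdown and 0.0890 CPM in the control library. Alternatives were other scalings, filters, fold minimums, halved counts and a removed length trend. The members and lists were chosen with earlier results of these data known. Named genes are all members, 7 fixed partners and regulators, near neighbours that passed, and the gene of each list with the highest TPM, the highest ratio and the lowest ratio, and others were named after their values were seen. Of the near neighbours that did not pass, those of Ccnd1, Ccnd2 and Cdkn2c were named in that way.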

Additional observations from a re-analysis of the deposited data

How the results depend on the processing

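Of the 65 recomputed log2 ratios of the G1 genes under plain library totals, DESeq2 size factors, upper-quartile factors, a removed length trend, halved counts, a fold minimum of 2, changed filters and the authors' deposited table, 63 kept their direction and their side of the rule of size and 0 reversed. Much of this was fixed in advance. Halved counts, the fold minimum and the filters leave a log2 ratio as it is and can change only whether it passes. The authors' deposited table compares the same 2 libraries, and its values for the members differ from these log2 ratios by at most 0.0021. Only the other scalings and the removed length trend could move a ratio further. Ccne1, at 0.81, no longer passed at a fold minimum of 2. Cdkn1a, at 0.60, passed as higher with the length trend removed. Ranges were 1.48 to 1.60 for Ccnd1, 2.01 to 2.25 for Ccnd2, 0.76 to 0.92 for Ccne1, 1.94 to 2.17 for Cdkn2b and -1.47 to -1.17 for Cdkn2c. Over all measured genes the fold minimum of 2 left 926 higher and 781 lower, against 1924 and 1612. The balance of calls turned with scaling, to 1740 higher and 1820 lower with upper-quartile factors, and was 1783 higher and 1770 lower with plain totals. The fold minimum of 2 also left 1 of the 4 pocket and E2F genes higher, 5 of the 9 upstream inputs, 4 of the 10 E2F targets, 1 of the 4 other cyclins higher and 0 of the 2 lower, and Kdm6b of the 2 lower chromatin genes, while Cbx8 no longer passed. Cdkn1c did not pass there either, nor with a minimum of 5 CPM. Of the kinase and activator genes those higher were 2 instead of 1 with DESeq2 size factors, with the length trend removed and in the authors' deposited table. The pocket and E2F genes higher were 2 instead of 4 with the length trend removed and with a minimum of 5 CPM. The other cyclins higher were 2 instead of 4 with overlapping genes left out, and the lower ones 1 instead of 2 with the length trend removed. No library could be left out, and no paired analysis was possible because each group has 1 library. Depth left Cdkn2a, on 9 counts in the knockdown library and 3 in the control library, without a detectable difference.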
